A study of Mus musculus with 103 samples.

Results

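The RNA of resting macrophages was described from 2 untreated libraries out of the 103 samples of the series, both read from 1 table of RPKM, which are read counts divided by transcript length and by library size. The authors deposited this table. Both hold poly(A) RNA of thioglycollate-elicited peritoneal macrophages, the cells that gather in the mouse abdomen after an injection of sterile thioglycollate broth. One library was titled as the untreated control for treatments of 1-12 h and the other as the untreated control for 24 h, and they are called the 1-12 h control library and the 24 h control library here. A gene was represented by its transcript of highest mean RPKM over the table's 6 libraries and kept where RPKM was at least 1 in 2 of them and the transcript had at least 200 bases. Of 24014 gene symbols on 33022 transcripts, 10605 passed the RPKM limit, 222 of these were shorter than 200 bases, and 10383 genes were kept.

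The macrophages came from male C57BL/6 mice of 6 to 8 weeks, collected by peritoneal lavage 3 to 4 days after 2.5 ml of thioglycollate broth, per the labels' protocols. They were plated in medium with 10% serum and held overnight in 0.5% serum before the experiment, which both untreated libraries share with the treated ones. Neither untreated library received KLA (Kdo2-lipid A, a defined bacterial lipid that activates the receptor TLR4), which the other 4 libraries of the table received at 100 ng/ml for 1, 6, 12 or 24 h. The labels give neither the hour at which each untreated culture was harvested nor the mice, the day or the preparation behind each library, so these cannot be told apart from one another. They describe 2 ways of making RNA libraries, without tying one to either library. With 1 library per control there is no test and no p-value, and every difference is one between libraries.

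Macrophages are phagocytes that take up and digest particles, dead cells and lipoproteins in lysosomes, acidic compartments filled with cathepsins and other hydrolases. Thioglycollate-elicited cells are known to be large, lipid-handling macrophages rich in lysosomes, in contrast to the smaller macrophages that live in the unstimulated peritoneum. Without a TLR ligand, macrophages keep most cytokine genes at a low level, and sterol synthesis is governed by the SREBP transcription factors and cholesterol export by the liver X receptors (LXR).

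The libraries were shallow. The reads behind each RPKM value were recovered from the steps between values and came to 1883937 in genes for the 1-12 h control library and 2181551 for the 24 h control library. A single read in a transcript of 1 kb was worth 0.453 and 0.386 RPKM, and 3 reads, the most that a count of 0 allows, 1.36 and 1.16 RPKM. Of the kept genes, 9799 and 9836 reached an RPKM of 1, 9558 did so in both libraries, and 53 had no read in either. Intervals below are 95% exact (Clopper-Pearson) intervals on recovered reads, and like the limit for a count of 0 they cover counting error only. RPKM of the kept genes correlated between the libraries with a Spearman rho of 0.962 across genes, which are not independent replicates. Among the 5604 genes with at least 100 reads over both libraries, the median fold difference, taken either way, was 1.24, and the plain ratio of the 24 h to the 1-12 h control library ran from 0.634 at the 5th percentile to 1.70 at the 95th.

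The libraries stood apart by transcript length and base composition, and this touches every comparison below. Differences are given as log2 ratios of RPKM + 1, the 24 h over the 1-12 h control library, which understate the difference of weakly expressed genes, and a fold given for 1 gene is the ratio of its RPKM values. The median log2 ratio of all kept genes was 0.02. In the decile of genes with the shortest transcripts (220 to 1051 bases) it was -0.32, and in the decile with the longest (5672 to 19826 bases) it was 0.33. From the decile of lowest GC content (32.7% to 41.8%) to the decile of highest (57.9% to 70.9%) it went from 0.39 to -0.37. Short or GC-rich transcripts were thus higher in the 1-12 h control library and long or AT-rich ones in the 24 h control library. The Spearman rho of the ratio with length was 0.448 and with GC content -0.519 across 10295 genes with a known GC content, a description over genes that share the same 2 libraries. The same rho for the library given KLA for 1 h against the 1-12 h control library was 0.145 with length and -0.118 with GC content. For KLA of 6, 12 and 24 h against that control it was 0.106, -0.058 and 0.123 with length. With GC content it was -0.159, -0.034 and -0.286. Against the 24 h control library, KLA of 1 h had -0.288 with length and 0.364 with GC content, and KLA of 24 h -0.153 and 0.016. Each group of genes is therefore also given relative to the median of genes in the same decile of length and of GC content, and the part of this trend in any single difference was not tested.

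**Figure D1:**
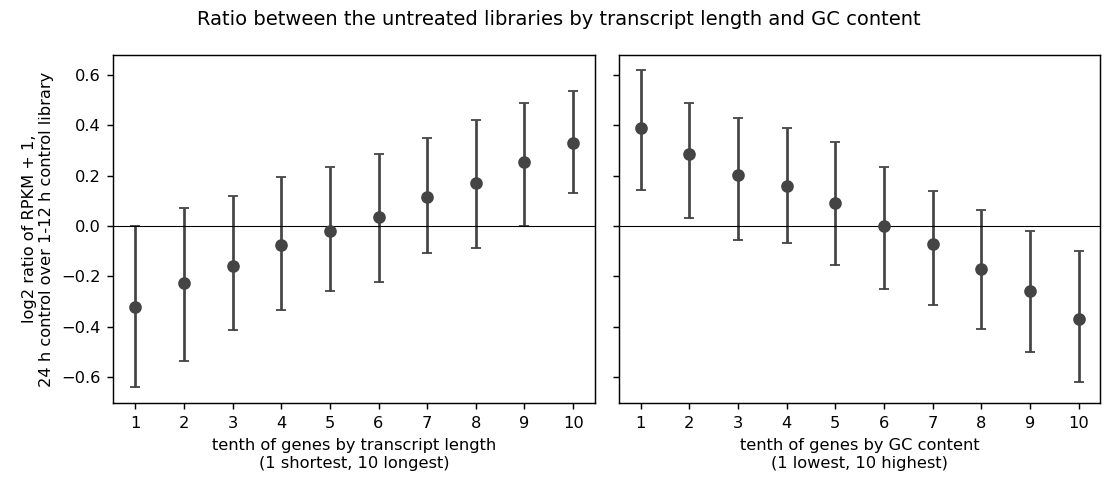
Median log2 ratio of RPKM + 1 (vertical axis, 24 h over 1-12 h control library) for deciles of the kept genes by transcript length (left) and by GC content (right), with bars from the 25th to the 75th percentile of genes. The medians run from -0.32 to 0.33 with length and from 0.39 to -0.37 with GC content.

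The 24 h control library was higher by 2-fold or more for 108 of 10383 genes (1.04%) and the 1-12 h control library for 203 (1.96%), so that 3% differed by 2-fold either way. The counting interval of the ratio lay above 1 for 1738 genes (16.7%) and below 1 for 1315 (12.7%). Both criteria together were met by 76 genes (0.732%) higher in the 24 h control library and by 153 (1.47%) higher in the 1-12 h control library. By the same 2-fold rule, KLA libraries differed from their own control in 6.92% of genes (1 h), 31.3% (6 h), 24.6% (12 h) and 19.9% (24 h). The genes higher in the 1-12 h control library had short and GC-rich transcripts, with a median of 1082 bases, 55.4% GC and 33 reads over both libraries. Those higher in the 24 h control library had a median of 2048 bases, 45.9% GC and 30 reads, beside 2651 bases and 50.1% GC over all kept genes. Relative to genes of the same length and GC decile, 57 of 102 and 74 of 201 of these genes with a GC value were still past 2-fold. On that scale 101 genes in all were at least 2-fold higher in the 24 h control library and 82 in the 1-12 h control library, the reverse of the balance above. With at least 20 reads and an interval excluding 1 as well, the counts on that scale were 27 and 45, which keep the balance above.

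**Figure D2:**
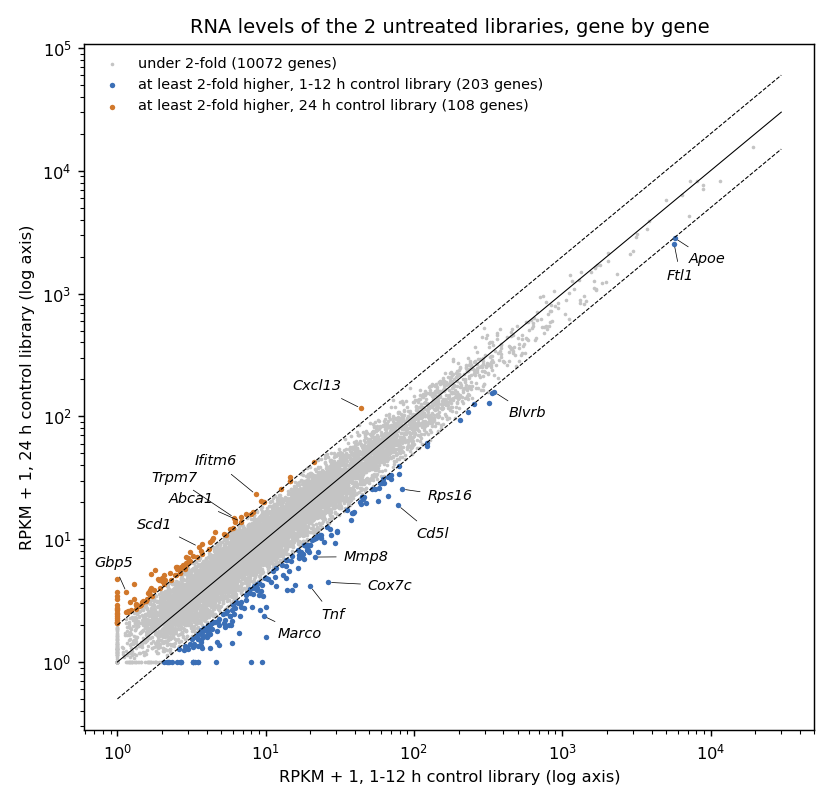
RPKM + 1 of each of the 10383 kept genes in the 1-12 h control library (horizontal log axis) and the 24 h control library (vertical log axis), with the line of equality and dashed lines at 2-fold. Of the genes, 203 lie past the lower dashed line and 108 past the upper one.

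A small set of RNAs made up a large part of the transcriptome of both libraries. Ranked by the lower of the 2 values, the 100 most abundant genes held 44.9% of the summed RPKM of the 1-12 h control library and 41.8% of that of the 24 h control library, and the first 10 held 20.3% and 19.7%. Their lowest member stood at 361.5 RPKM, and 86 of them were among the 100 highest of each library taken alone. Of the 100, 0 were at least 2-fold higher in the 24 h control library and 2, Apoe and Ftl1, in the 1-12 h control library. Relative to genes of the same length and GC decile both were under 2-fold, with log2 ratios of -0.53 for Apoe and -0.51 for Ftl1. The intervals of 19 lay above 1 and those of 68 below 1, beside 16.7% and 12.7% of all kept genes. Intervals narrow as reads increase, so those of abundant genes exclude 1 at small differences. That of Ctss ran from 1.001 to 1.036 at a ratio of 1.02. Of the 100, 28 were in the lysosomal lists and 16 in the list of lipid-associated macrophage genes. The list of the actin and tubulin cytoskeleton held 12 and that of MHC class I 5. Some genes were in more than 1 list, while 29 were in none. The lipid-associated list is a set of genes of a macrophage state, and not all of its members handle lipid. The list of fatty acid oxidation and lipid storage had 5 members among the 100.

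**Figure D3:**
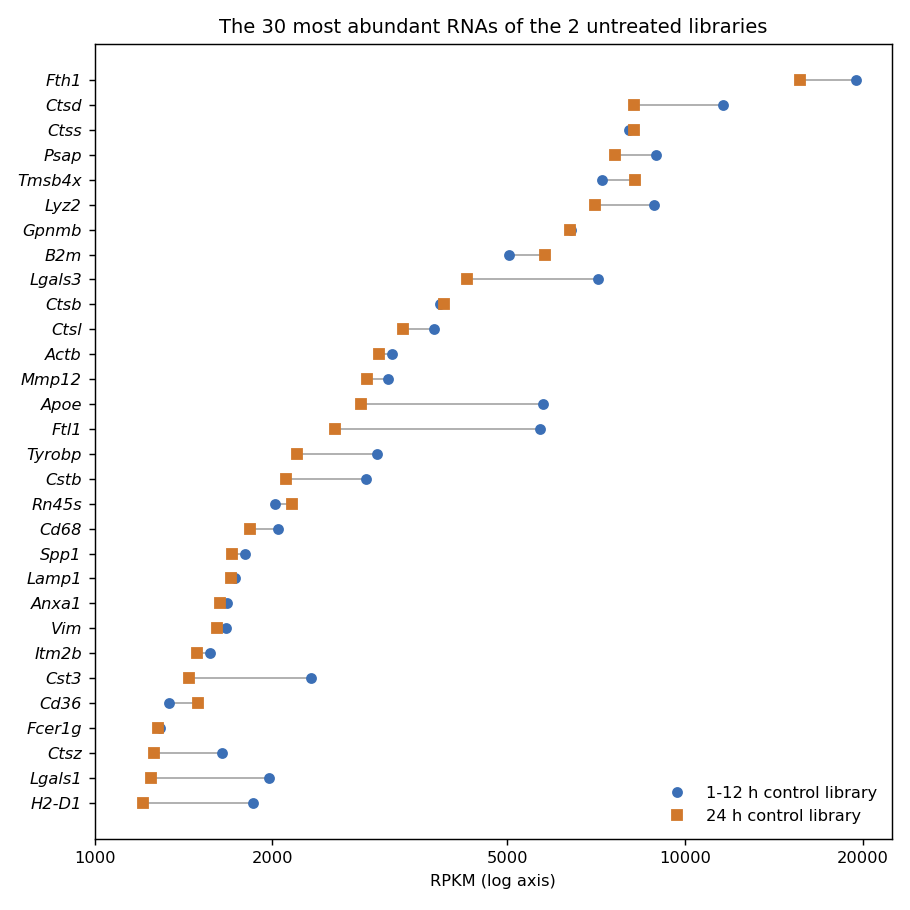
RPKM (horizontal log axis) of the 30 most abundant genes in the 1-12 h control library and the 24 h control library, 1 point per library. Fth1 is the highest in both, and the widest gaps are those of Ftl1 and Apoe, which lie higher in the 1-12 h control library.

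Lysosomal genes were the largest of these groups, with 17.1% of the summed RPKM in the 1-12 h control library and 16.4% in the 24 h control library from 75 measured genes. Ctsd, the aspartic protease cathepsin D (chr7:149561821-149573775 in mm9), stood at 11594 RPKM in the 1-12 h and 8180 in the 24 h control library. It was 1.42-fold higher in the former (interval 1.40 to 1.44). Among the cysteine cathepsins the levels were closer, Ctss with 8044 and 8195 RPKM, Ctsb with 3836 and 3897, and Ctsl with 3751 and 3329. Cathepsins gave 7 of the 100 most abundant genes out of 11 measured. Psap, the precursor of the saposins that help degrade sphingolipids, had 8929 and 7598 RPKM, and Lyz2, the lysozyme of myeloid cells, 8848 and 7040. Of the membrane proteins, Cd68, a macrophage lysosomal glycoprotein, had 2043 and 1835 RPKM and Lamp1 1726 and 1703, while Cd63, a tetraspanin, had 756 and 535. Lipa, the acid lipase that frees cholesterol from lipoproteins, had 1171 and 1275 RPKM. The V-type proton pump, which acidifies the lysosome, had 19 measured subunits, of which 7 had a log2 ratio above 0 and 12 below. Atp6v0d2, with 873 and 1051 RPKM, and Atp6v1a, with 362 and 456, were higher in the 24 h control library. Atp6v0e, with 719 and 614 RPKM, was lower in it. Of the 75 lysosomal genes, 1 was 2-fold higher in the 24 h control library, Atp6v1e2 on 1 and 5 reads (ratio 4.26, interval 0.477 to 202), and 0 in the other. The intervals of 18 lay above 1 and of 31 below 1, beside 16.7% and 12.7% of all kept genes. Of the 75, 28 were among the 100 most abundant genes, whose intervals are narrow. The median log2 ratio of the 75 was -0.10, or -0.02 relative to length and GC content.

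The promoters of several lysosomal genes hold the letters TCACGTGA, known as the CLEAR motif, to which factors of the TFEB family bind. It reads the same on both strands. In windows of 300 bases (250 before to 50 after the start) from RefSeq on GRCm38.p6 it was present for 6 of 59 lysosomal genes with a listed promoter (10.2%), for 203 of 8362 kept genes (2.43%) and for 0.974% of all 32851 promoters. Of the 13 proton pump genes with a listed promoter 3 held it (23.1%), of the 9 cathepsins 2 (22.2%), and of the 38 in the list of other lysosomal genes 2 (5.26%). Ctsa holds it, is in both of the latter lists and is counted in each. A match describes letters and not a bound site. The promoters of Ctsd (chr7:142387778-142388077, minus strand, motif 99 bases before the start), Atp6v1a (chr16:44139210-44139509, minus strand, 132 bases before) and Atp6v0e (chr17:26676146-26676445, plus strand, 2 bases after) are shown 5′ to 3′, with the motif in capitals, because they show this shared element at different distances from the start.
Ctsd: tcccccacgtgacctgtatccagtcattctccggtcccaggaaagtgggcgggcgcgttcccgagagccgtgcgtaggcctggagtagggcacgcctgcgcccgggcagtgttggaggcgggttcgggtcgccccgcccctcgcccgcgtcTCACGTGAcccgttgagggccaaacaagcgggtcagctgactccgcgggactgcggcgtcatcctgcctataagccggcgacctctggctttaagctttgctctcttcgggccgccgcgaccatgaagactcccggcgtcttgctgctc
Atp6v1a: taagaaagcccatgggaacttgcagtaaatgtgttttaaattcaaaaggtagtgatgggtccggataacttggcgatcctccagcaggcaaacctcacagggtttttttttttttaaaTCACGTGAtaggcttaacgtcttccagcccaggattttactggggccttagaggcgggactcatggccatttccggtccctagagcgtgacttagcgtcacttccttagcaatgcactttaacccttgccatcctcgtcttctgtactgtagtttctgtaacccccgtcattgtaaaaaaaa
Atp6v0e: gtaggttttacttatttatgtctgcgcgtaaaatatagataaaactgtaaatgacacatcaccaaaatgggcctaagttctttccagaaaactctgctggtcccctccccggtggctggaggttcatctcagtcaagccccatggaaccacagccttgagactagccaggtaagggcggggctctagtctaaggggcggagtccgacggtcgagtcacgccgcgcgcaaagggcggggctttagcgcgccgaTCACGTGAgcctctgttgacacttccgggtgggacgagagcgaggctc
In the peak lists of the series, from macrophages given the LXR agonist GW3965, an LXR peak lay within 1 kb of the start of 81.8% of the measured cathepsins, 84.2% of the proton pump subunits and 63.0% of the list of other lysosomal genes, beside 52.9% of all kept genes. Over all lysosomal lists it was 70.7%, beside 69% of the 100 most abundant genes. Such shares were not particular to lysosomal genes, as glycolysis and chaperones each had 80%, while iron storage had 38.5%. These peaks were made in treated cells and describe position only.

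Iron storage supplied the highest RNA of all. Fth1, the heavy chain of ferritin, stood at 19448 and 15658 RPKM in the 1-12 h and 24 h control libraries. Ftl1, the light chain (chr7:52713314-52715256 in mm9), stood at 5678 and 2551 RPKM and was 2.23-fold higher in the 1-12 h control library (interval 2.16 to 2.29), on 12132 and 6396 reads. The 2 chains of the same protein shell therefore lay unevenly between the libraries. Ferritin has near copies elsewhere in the genome that the authors' read assignment could split, so these levels are uncertain. Blvrb, which reduces biliverdin made from heme, had 347 and 157 RPKM, and Hmox1, which breaks down heme, 259 and 186. Tfrc, the receptor that brings in transferrin-bound iron, went the other way, with 108 and 163 RPKM. Over the 13 measured genes of the list the median was -0.12, and 0.06 relative to length and GC content, with 7 genes above and 6 below the median of like genes. Enzymes against oxidants were also abundant, with 1690 and 1085 RPKM for the peroxiredoxin Prdx1 and 121 and 56.1 for the superoxide dismutase Sod1, 1 of the 203 genes at least 2-fold higher in the 1-12 h control library. Relative to length and GC content Ftl1, Blvrb and Sod1 were under 2-fold.

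Genes of lipid-associated macrophages took 9.25% and 8.27% of the summed RPKM, and 16 of their 18 measured members were among the 100 most abundant. Gpnmb, a transmembrane glycoprotein of lipid-laden macrophages, was nearly level with 6403 and 6376 RPKM. Lgals3, galectin-3, had 7123 and 4265 RPKM, and Spp1, osteopontin, 1800 and 1707. Mmp12, the macrophage elastase, had 3132 and 2896. Cd36, a scavenger receptor for oxidised lipoproteins, had 1337 and 1496 RPKM, and Lpl, lipoprotein lipase, 379 and 516, the highest ratio among the 100 most abundant genes at 1.36. Apoe, the apolipoprotein that carries cholesterol out of macrophages (chr7:20281593-20284515 in mm9), had 5741 and 2826 RPKM and was 2.03-fold higher in the 1-12 h control library (interval 1.98 to 2.08). Its log2 ratio was -0.53, under 2-fold, relative to length and GC content. Apoc2, from the same gene cluster, had 9.37 and 3.73 RPKM on 15 and 7 reads. Of the 18 genes, 0 were 2-fold higher in the 24 h and 2 in the 1-12 h control library. Of all kept genes, 1.04% and 1.96% were. The median of the 18 was -0.17, or -0.22 relative to length and GC content, with 16 of 18 below the median of genes of like length and GC content.

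The cytoskeleton held 5.88% and 6.31% of the summed RPKM over 50 measured genes. Tmsb4x, thymosin beta 4, which binds actin monomers, had 7229 and 8212 RPKM, and Actb, beta-actin, 3186 and 3036. Anxa1, an annexin, had 1673 and 1632, and Vim, the intermediate filament vimentin, 1669 and 1609. Tmsb10, a paralog of Tmsb4x, had 334 and 153 RPKM and S100a4, a calcium-binding protein, 252 and 124, both at least 2-fold higher in the 1-12 h control library and both under 2-fold relative to length and GC content. Actg1 was listed with 1 and 8 reads, which is low for gamma-actin, a gene with many near copies, and is uncertain. Over the list the median was -0.14, or -0.01 relative to length and GC content.

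RNAs of MHC class I, which present peptides from inside the cell, were abundant at rest, and those of class II less so. B2m, the common light chain of class I, had 5030 and 5777 RPKM, and the heavy chain H2-D1 1851 and 1207. The class I heavy chains are near copies of one another, so their split is uncertain. Of class II, Cd74, the invariant chain, had 484 and 258 RPKM, H2-Aa 181 and 153, and H2-Ab1 119 and 73.3. All 8 measured class II genes had a log2 ratio below 0, with a median of -0.38 and of -0.14 relative to length and GC content, and 0 of them reached 2-fold. Of the antibody receptors and the adaptors of activating receptors, Fcer1g, the signalling chain of Fc receptors, had 1291 and 1279 RPKM, and the receptor Fcgr3 508 and 384. Tyrobp, the adaptor of Trem2 and related receptors, had 3007 and 2199. Of the complement genes, Itgb2, the shared chain of the complement receptor integrins, had 675 and 710 RPKM and C1qb, a chain of the first component, 394 and 283. Over the 18 measured complement genes the median was 0.12, or 0.13 relative to length and GC content. The interval lay above 1 for 6 of the 18 and below 1 for 3, beside 16.7% and 12.7% of all kept genes.

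Ribosomal protein and respiratory chain genes lay mostly higher in the 1-12 h control library. Of 81 measured ribosomal protein genes, 12 were at least 2-fold higher in it and 3 in the 24 h control library. Of all kept genes, 1.96% and 1.04% were. The interval lay below 1 for 35 of the 81 and above 1 for 0, beside 12.7% and 16.7% of all kept genes. Rps16 had 82.0 and 24.5 RPKM on 111 and 39 reads, a 3.34-fold difference (interval 2.30 to 4.94), and Rpl3 had 13.0 and 2.84 RPKM. Gnb2l1, the most abundant member by the lower of its values, lay the same way with 772 and 542 RPKM. Ribosomal protein genes have many processed pseudogenes, so reads may be split among copies and single values are uncertain. Their transcripts are short, with a median of 702 bases, and the median log2 ratio of -0.51 was -0.24 relative to length and GC content. Of 76 genes of the respiratory chain and ATP synthase, 3 were 2-fold higher in the 1-12 h control library and 0 in the other, with a median of -0.37 that shrank to -0.08 relative to length and GC content. Cox7c, a subunit of cytochrome oxidase, had the largest difference of all named genes toward the 1-12 h control library, 25.3 and 3.45 RPKM on 25 and 4 reads, and it too has near copies. Tpt1, the translationally controlled tumour protein, had 321 and 127 RPKM. The proteasome list had a median of -0.35, or -0.18 relative to length and GC content.

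**Figure D4:**
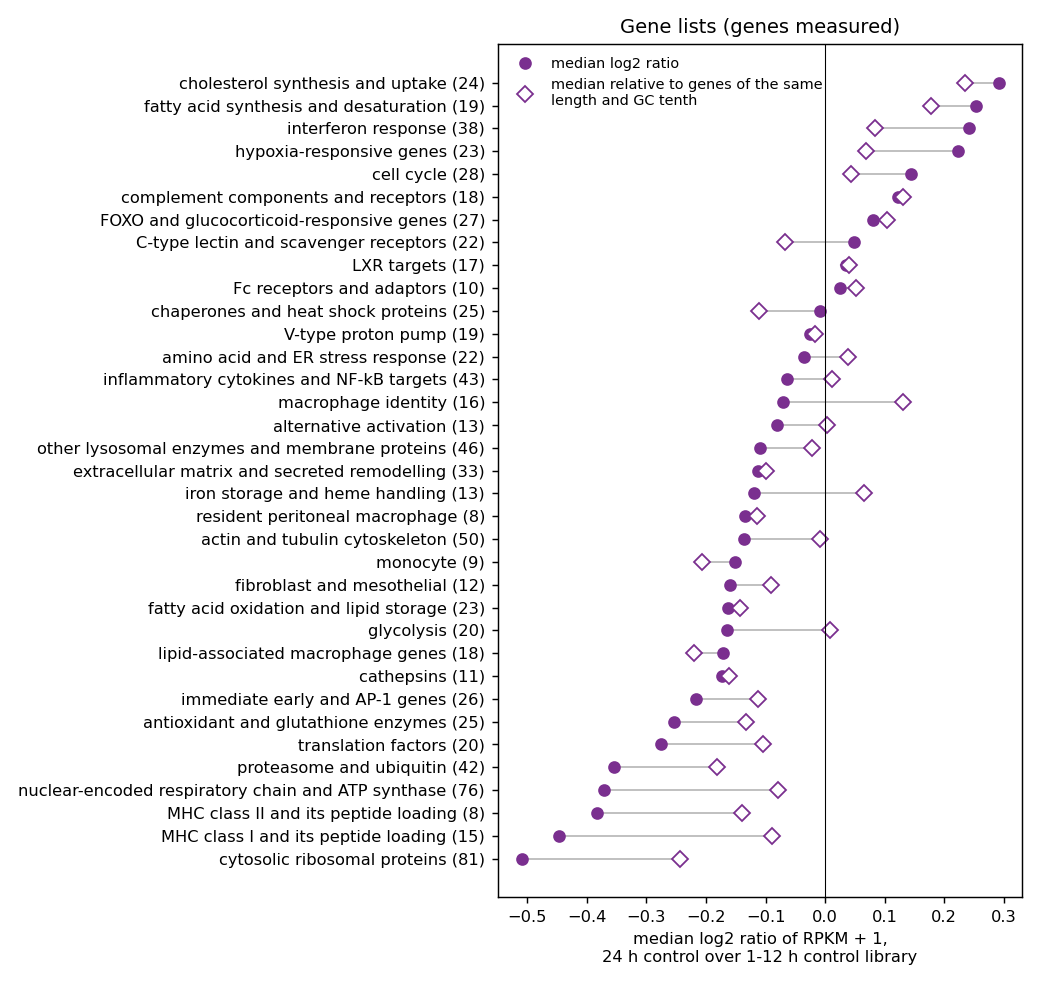
Median log2 ratio of RPKM + 1 (horizontal axis, 24 h over 1-12 h control library) of each gene list with at least 8 measured genes, as filled circles, and the median relative to genes of the same decile of length and GC content, as open diamonds; the number of measured genes is in brackets. Cholesterol synthesis has the highest median (0.29, open diamond 0.23) and ribosomal proteins the lowest (-0.51, open diamond -0.24).

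Genes of cholesterol synthesis and uptake were slightly higher in the 24 h control library. Of 24 measured genes, 18 had a log2 ratio above 0, while 0 reached 2-fold in either direction. The interval of 12 lay above 1 and that of 1 below 1, beside 16.7% and 12.7% of all kept genes. The median was 0.29, beside 0.02 over all genes, and 0.23 relative to length and GC content, where 20 of 24 lay above the median of like genes. Sc5d, a sterol desaturase late in the pathway (chr9:42062260-42072383 in mm9), had 63.3 and 101 RPKM and was 1.60-fold higher in the 24 h control library (interval 1.39 to 1.84). Msmo1, a sterol demethylase component, had 174 and 225 RPKM, Sqle, squalene epoxidase, 38.8 and 57.7, and Cyp51, lanosterol demethylase, 36.8 and 50.0. Stard4, a sterol carrier, had 8.51 and 15.4 RPKM (1.81-fold, interval 1.31 to 2.53). Hsd17b7, a sterol reductase, had 3.67 and 7.94 (2.17-fold in plain RPKM, interval 1.47 to 3.26, and under 2-fold on the RPKM + 1 scale). Pmvk, an early enzyme of the pathway, went the other way with 17.9 and 8.78 RPKM. For Hmgcs1, the synthase that feeds the pathway, each of the 6 libraries has a 0, which may be a failed assignment of reads. A peak of SREBP1 in the list from GW3965-treated cells lay within 1 kb of the start of 21 of the 24 genes (87.5%), beside 41.7% of all kept genes.

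Of the genes of fatty acid synthesis and desaturation, the stearoyl desaturases had the largest ratios. Scd1, which puts the first double bond into stearate (chr19:44468940-44482199 in mm9), had 2.53 and 7.67 RPKM on 27 and 96 reads, a 3.03-fold difference (interval 1.96 to 4.83), and was the only member of the list past 2-fold on the RPKM + 1 scale, with a log2 ratio of 1.30 that was 0.94, under 2-fold, relative to length and GC content. Its paralog Scd2 had 24.8 and 48.5 RPKM (1.96-fold, interval 1.70 to 2.25). Acly, which makes cytosolic acetyl-CoA, had 39.6 and 53.8 RPKM, and Elovl5, an elongase, 35.7 and 47.8. The desaturases of polyunsaturated fatty acids did not follow, with 27.8 and 26.4 RPKM for Fads1 and 4.21 and 3.59 for Fads2. Fasn, fatty acid synthase, was weak and close, with 4.24 and 5.25 RPKM. Srebf1, which encodes SREBP1, lay the other way with 13.9 and 8.90 RPKM. Of 19 measured genes, 14 had a log2 ratio above 0, with a median of 0.25 and of 0.18 relative to length and GC content.

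Genes known as LXR targets split in both directions. Of 17 measured, 2 were at least 2-fold higher in the 24 h control library, Abca1 and Scd1, and 4 in the 1-12 h control library, Apoe, Pltp, Cd5l and Apoc2. Of all kept genes, 1.04% and 1.96% were. Abca1, the transporter that exports cholesterol to lipid-poor apolipoprotein, had 5.79 and 12.9 RPKM on 131 and 343 reads (2.23-fold, interval 1.82 to 2.75). Abcg1, which exports cholesterol to mature particles, had 46.5 and 52.5 RPKM. Pltp, the phospholipid transfer protein, had 230 and 108 RPKM, 2.14-fold higher in the 1-12 h control library (interval 1.92 to 2.39). Cd5l, a secreted protein that protects macrophages from apoptosis (chr3:87161803-87174996 in mm9), had 77.1 and 17.8 RPKM on 346 and 94 reads, 4.32-fold higher in the 1-12 h control library (interval 3.43 to 5.48). Relative to length and GC content Cd5l was still past 2-fold, while the log2 ratios of the other 5 were under it, at -0.53 for Apoe, -0.73 for Pltp, -0.61 for Apoc2, 0.68 for Abca1 and 0.94 for Scd1. The receptors themselves were modest, with 28.5 and 21.9 RPKM for Nr1h3 and 43.2 and 37.4 for Nr1h2, and the list's median was 0.04 on both scales. In the KLA libraries Cd5l had 64.5, 47.6, 27.9 and 17.1 RPKM at 1, 6, 12 and 24 h, so the 24 h control library lay beside the 24 h KLA library and far from the other control.

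Several inducible cytokine genes, among them Tnf, Cxcl1, Cxcl2 and Il1b, were low in both untreated libraries and higher in the 1-12 h control library. Tnf, the cytokine (chr17:35336312-35338952 in mm9), had 18.9 and 3.13 RPKM on 67 and 13 reads, 6.05-fold higher in the 1-12 h control library (interval 3.31 to 11.9). With KLA it had 5276, 1648, 1160 and 639 RPKM at 1, 6, 12 and 24 h, so both controls lay far below every treated library. Cxcl1, a chemokine for neutrophils, had 8.13 and 1.63 RPKM on 17 and 4 reads, and its relative Cxcl2 13.0 and 5.71 on 31 and 16. Il1b, interleukin-1 beta, had 6.84 and 2.62 RPKM on 20 and 9 reads, and Tnfsf9, the ligand of 4-1BB, had 8 and 2 reads. These 5 were the members at least 2-fold higher in the 1-12 h control library out of 43 measured. Cxcl3, with 0 and 5 reads, was the 1 member past 2-fold in the other direction. Of all kept genes, 1.96% were 2-fold higher in the 1-12 h and 1.04% in the 24 h control library. Other members of the list were not low at rest. Saa3, an acute-phase protein, had 556 and 325 RPKM, and Il1rn, the antagonist of the interleukin-1 receptor, 176 and 230. Il1a lay against Il1b, with 21.6 and 37.6 RPKM. Other chemokines of the list lay in both directions. The log2 ratio was 0.34 for Ccl2, 0.39 for Ccl7, 0.35 for Cxcl5 and -0.0002 for Ccl3. It was -0.998 for Ccl4, -0.58 for Cxcl14 and -0.06 for Ccl5. The median over the list was -0.06, and 0.01 relative to length and GC content.

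Immediate early genes, which a stimulus induces within minutes, had 26 measured members, of which 2 were at least 2-fold higher in the 1-12 h control library and 1 in the 24 h control library. Of all kept genes, 1.96% and 1.04% were. Junb had 78.7 and 38.5 RPKM (2.05-fold, interval 1.70 to 2.47), and Egr1 3.84 and 1.26 on 26 and 10 reads. Dusp4, a phosphatase of MAP kinases, lay the other way with 1.31 and 3.66 RPKM on 7 and 23 reads. Relative to length and GC content Junb and Egr1 were under 2-fold and Dusp4 was past it. Atf3, the most abundant of them, had 337 and 311 RPKM, and Klf6 79.9 and 130. The interval lay below 1 for 9 members and above 1 for 2, beside 12.7% and 16.7% of all kept genes, and the median was -0.22, or -0.11 relative to length and GC content.

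Interferon-response genes were low, and 1 of 38 measured was past 2-fold, beside 3% of all kept genes. Gbp5, a guanylate-binding protein that assembles on membranes of infected cells (chr3:142159898-142185308 in mm9), had 0.150 and 2.69 RPKM on 1 and 21 reads, a ratio of 17.9 with an interval of 2.88 to 740. Bst2, tetherin, was the highest of the list with 72.9 and 58.1 RPKM. The interval lay above 1 for 6 of the 38 and below 1 for 1, beside 16.7% and 12.7% of all kept genes. Of the 38, 26 had a log2 ratio above 0 and 10 below. The median was 0.24, which fell to 0.08 relative to length and GC content. The interferon-stimulated response element, searched as GAAA, any 2 bases and GAAA on both strands, was in the promoter of 16 of 29 listed members (55.2%), of 4.11% of kept genes and of 3.44% of all promoters. It was in 8 of 94 promoters (8.51%) of the genes higher in the 24 h control library and in 6 of 163 (3.68%) of those higher in the other. The promoter of Gbp5 (GRCm38.p6, chr3:142496684-142496983, plus strand, match 165 bases before the start) is shown 5′ to 3′ because Gbp5 leads the genes higher in the 24 h control library, with the match in capitals, which reads on the minus strand.
Gbp5: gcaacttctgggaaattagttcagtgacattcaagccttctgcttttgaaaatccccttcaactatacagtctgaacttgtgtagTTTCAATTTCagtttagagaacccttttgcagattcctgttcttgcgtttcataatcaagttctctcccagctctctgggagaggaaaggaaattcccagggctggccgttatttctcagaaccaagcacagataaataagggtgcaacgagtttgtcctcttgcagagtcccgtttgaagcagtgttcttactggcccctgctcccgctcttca
Ifitm6, an interferon-induced transmembrane protein outside the list, had 7.56 and 22.2 RPKM on 9 and 31 reads.

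Among the other genes named for their size of difference toward the 24 h control library, Cxcl13 stood out by its level. This chemokine draws B cells and is made by peritoneal macrophages (chr5:96385958-96390087 in mm9). It had 43.0 and 115 RPKM on 110 and 346 reads, a 2.68-fold difference (interval 2.16 to 3.35), and 1.27 remained of the log2 ratio of 1.40 relative to length and GC content. Several of the rest were long or AT-rich transcripts. Trpm7, an ion channel with a kinase domain, had 5.14 and 14.0 RPKM, Atr, the DNA damage kinase, 0.674 and 3.02, and Fgd4, an exchange factor for Cdc42, 5.23 and 13.2. Relative to length and GC content the log2 ratio of Trpm7 went from 1.28 to 0.71 and that of Atr from 1.26 to 0.68. Of the 20 named in this direction, 18 had a GC value and 10 of these were still past 2-fold on that scale, and of the 20 named in the other direction 18 were.

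The markers of macrophage identity summed to far more RPKM in both libraries than those of any other cell type. All 16 identity genes were kept, and their summed level was 14936 and 11920 RPKM, beside 8123 to 14272 in the KLA libraries. Most of the sum came from Lyz2 (8848 and 7040 RPKM), Tyrobp (3007 and 2199) and Cd68 (2043 and 1835). Spi1, which encodes the myeloid factor PU.1, had 284 and 162 RPKM, and Csf1r, the receptor for the growth factor of macrophages, 152 and 117. Csf1r alone stood near the sum of the 15 fibroblast and mesothelial markers, 136 and 131 RPKM. Markers of the macrophages that live in the unstimulated peritoneum summed to 230 and 160 RPKM over 12 genes. Gata6, their defining transcription factor, had 4.12 RPKM in both libraries, while Cd5l and Fcna, a ficolin, were at least 2-fold higher in the 1-12 h control library, Fcna with 69.3 and 32.0 RPKM and under 2-fold relative to length and GC content. Prg4, a lubricating proteoglycan, had 2.65 and 0.821 on 11 and 4 reads. Cd93 lay against them with 73.3 and 96.7. In bulk RNA, fewer cells of a type and less RNA per cell cannot be told apart, and the part of such cells in the difference of Cd5l was not tested.

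Marco, Retnla and Ccl8, named for the size of their difference, were higher in the 1-12 h control library. Of these, only Retnla is in the list of alternative activation. Marco, a scavenger receptor for bacteria, had 8.69 and 1.36 RPKM on 38 and 7 reads, 6.37-fold higher in the 1-12 h control library (interval 2.81 to 16.9). Retnla, a secreted product of interleukin-4 treated macrophages, had 26.6 and 9.71 RPKM on 35 and 15 reads, and Ccl8, a chemokine, 28.5 and 8.34 on 32 and 11. Mrc1, the mannose receptor, lay the other way with 36.6 and 67.7 RPKM. Of the 13 measured genes of alternative activation 1 was past 2-fold, and their median was -0.08, with 7 above and 6 below the median of genes of like length and GC content. Arg1, another gene of that state, was close, with 13.5 and 9.69 RPKM. In the libraries given KLA for 1, 6, 12 and 24 h, Marco had 7.56, 5.95, 30.3 and 23.9 RPKM. Ccl8 had 21.2, 31.4, 36.9 and 22.7 RPKM there, and Retnla 20.2, 21.2, 13.0 and 10.6.

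Neutrophil markers summed to 74.1 and 60.2 RPKM over 11 genes, and Mpo, Camp and Retnlg were at 0 in both libraries. Mmp8, a collagenase kept in neutrophil granules, was at 20.3 and 6.15 RPKM on 110 and 39 reads, 3.31-fold higher in the 1-12 h control library (interval 2.28 to 4.90). S100a8, an abundant neutrophil RNA, lay the other way with 38.3 and 45.5 RPKM. Monocyte markers summed to 61.0 and 61.3 RPKM with Ly6c1 and Ly6c2 listed at 0, which in near copies such as these can be reads left unassigned. Lymphocyte markers summed to 14.5 and 13.6 RPKM, and mast cell markers to 1.54 and 1.12. Eosinophil markers summed to 1.95 and 0.662, with 0 of 7 genes kept and Prg2, Epx and Ear6 at 0. Dendritic cell markers summed to 128 and 78.1 RPKM, most of it from H2-Ab1, which macrophages also express. Markers of fibroblasts and mesothelium were nearly even, with a sum of 136 and 131 RPKM over 15 genes. Dcn, the matrix proteoglycan decorin, had 58.9 and 59.5 RPKM, Col1a1, a collagen chain, 16.2 and 13.9, and Pdgfra, a growth factor receptor of fibroblasts, 4.36 and 9.79. Of the 12 measured, 8 had a log2 ratio below 0 and 9 lay below the median of genes of like length and GC content. The fibroblast-related Cdh11, a cadherin named among the genes higher in the 24 h control library, had 3.44 and 9.26 RPKM on 32 and 101 reads. Pdgfra and Cdh11 were under 2-fold relative to length and GC content, and the part of stromal cells in it was not tested.

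Set beside the 4 KLA libraries, the genes that differed between the controls often had an untreated library at the end of the range. Of the 203 genes at least 2-fold higher in the 1-12 h control library, that library was the highest of all 6 for 118 (58.1%) and the 24 h control library the lowest for 133 (65.5%). Over all kept genes the 1-12 h control library was the highest for 25.1% and the 24 h control library the lowest for 10.6%. Of the 108 genes higher in the 24 h control library, it was the highest of the 6 for 62 (57.4%), and the 1-12 h control library was the lowest for 55 (50.9%). Over all kept genes those shares were 28.9% and 8.91%. These shares were raised by the way the genes were chosen and are given as a description.

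**Figure D5:**
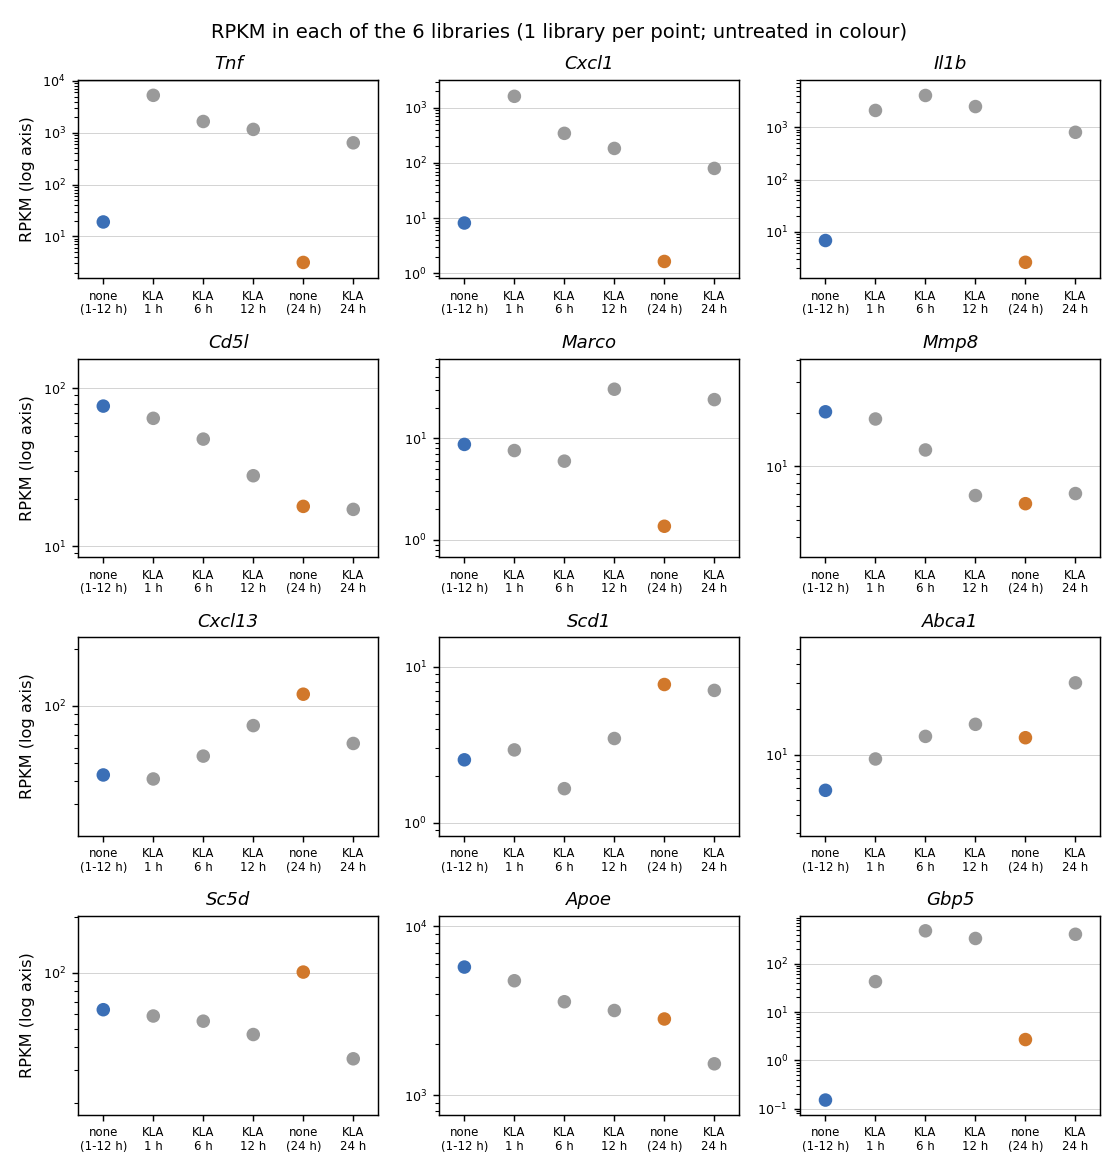
RPKM (vertical log axes, each with its own range) of 12 genes in the 6 libraries of the table, 1 point per library, with the untreated libraries in colour and the KLA libraries in grey. Tnf, Cxcl1 and Il1b lie far higher in every KLA library than in either control, while Cxcl13 is highest in the 24 h control library.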

How the data were processed

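RNA was measured by sequencing poly(A) RNA in 6 libraries, of which the 2 untreated ones are described. The values are RPKM computed by the authors and deposited in 1 table on build mm9. The submitters' processing notes list Bowtie 0.12.7, STAR, HOMER and mm9 with no role for each. Whether counting used strand was not given in the sources used here. Overlapping and antisense genes thus cannot be separated, and near copies are uncertain. For the peaks, the normalised tag count is a signal scaled by the authors, and peaks were used by position only.

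From the RPKM values, whole reads were recovered with 1 total per library, 2205187 and 2587519, and 99.97% of values were whole within 0.01 read. Ratios used RPKM + 1, with 2-fold as the call and 95% exact intervals on recovered reads. There was no count model, as each control is 1 library. The members and the 41 gene lists were chosen with earlier results of these data known. Named genes were the 30 most abundant by the lower value; in each direction the 20 largest log2 ratios past 2-fold with at least 20 reads and an interval excluding 1; in each list the 3 most abundant members and up to 6 past 2-fold; marker genes; and members of the sterol, fatty acid, LXR and inflammatory lists. GC content (GC fraction of the exons) came from RefSeq on GRCm38.p6, matched by accession for 10295 of 10383 genes. Promoters came from RefSeq on the same build, matched by symbol for 8362 genes. The intervals and the calls were tested on simulated reads with set fold changes and counting error only. The simulation held no trend with length or GC content and no variation between cultures, so it tests the calls against neither. Alternatives were other pseudocounts, filters, transcript choices, scalings (median, trimmed mean of M values), list sizes and, added after seeing the data, ratios relative to the decile of length and GC content. Python 3.11.15, numpy 2.4.6, pandas 2.3.3, scipy 1.17.1 and matplotlib 3.10.9 were used.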

Additional observations from a re-analysis of the deposited data

How the results depend on the processing

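No paired analysis was possible because each untreated control is 1 library. The number of genes at least 2-fold higher in the untreated 24 h control library, 108 as reported, was 431 with a pseudocount of 0.1 RPKM, 7 with 3 RPKM and 60 with an RPKM of at least 1 in both controls. The number of genes at least 2-fold higher in the untreated 1-12 h control library, 203 as reported, was 441 and 70 with those pseudocounts, 113 with transcripts of at least 1000 bases and 82 relative to length and GC content, an alternative chosen after seeing the data. Relative to length and GC content, medians below -0.1 that ended above 0 were median log2 ratio, iron storage and heme handling (from -0.12 to 0.0645), median log2 ratio, glycolysis (from -0.16 to 0.00779) and median log2 ratio, lymphocyte (from -0.12 to 0.0743), all within 0.1 of 0. Medians already within 0.1 of 0 that crossed it were those of macrophage identity (from -0.07 to 0.13), the inflammatory list (from -0.06 to 0.01), alternative activation, lectin and scavenger receptors and the ER stress response. Besides the first 3, 16 list medians moved by 0.1 or more. Rescaling to a median of 0 moved log2 ratios by about -0.03 at most, and by less for weakly expressed genes. The trimmed mean of M values gave a factor of 1.03. Of the single genes recomputed, 0 of those past 2-fold changed sign. Under the length and GC alternative 29 lay outside their counting interval, with a pseudocount of 3 RPKM 9, and with the median rescaling 1. That interval is on the plain ratio, while the log2 ratios hold a pseudocount. Weakly expressed genes can thus lie outside it for that reason alone. Calls of 2-fold such as those of Apoe, Pltp, Abca1, Atr and Cdh11 were lost under the length and GC alternative. The share of the most abundant genes held by a list left the 95% binomial interval of its share of the first 100 in these cases. With the first 50 it was 0% for ribosomal proteins, the respiratory chain, complement and chaperones (3%, 1%, 1% and 1% of the first 100) and 2% for the proton pump (6%). With the first 200 it was 8% for lipid-associated genes (16%) and 18% for all lysosomal lists (28%). Ranked by reads it was 0% for the respiratory chain, and with transcripts of at least 1000 bases 0% for the respiratory chain and iron storage (2%). Depth limits what genes of a few reads can show, and 1 library per control gives no spread between cultures.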

Other observations

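Some genes outside the described groups also differed and were chosen after their values were seen. Cdkn1c, an inhibitor of cyclin-dependent kinases, had 297 RPKM in the 1-12 h and 525 in the 24 h control library, on 1247 and 2586 reads, a ratio of 1.77 (interval 1.65 to 1.89). Its log2 ratio of 0.82 was 1.15 relative to genes of like length and GC content. In the KLA libraries it had 236, 99.2, 69.8 and 21.8 RPKM at 1, 6, 12 and 24 h. Mob1a, an activator of Hippo pathway kinases, had 41.5 and 83.7 RPKM (ratio 2.01, interval 1.65 to 2.47), and Chpt1, a choline phosphotransferase of phosphatidylcholine synthesis, 13.7 and 28.9 (ratio 2.11, interval 1.47 to 3.07). Toward the 1-12 h control library, Mpc1, a subunit of the mitochondrial pyruvate carrier, had 29.0 and 10.7 RPKM on 58 and 25 reads, and Rbm3, a cold-induced RNA-binding protein, 22.7 and 9.81 on 67 and 34. Relative to length and GC content, 27 genes with at least 20 reads and an interval excluding 1 were 2-fold higher in the 24 h control library and 45 in the 1-12 h control library, of which 19 and 39 were also past 2-fold before. Rn45s, the precursor of ribosomal RNA, had 2021 and 2157 RPKM, or 1.38% and 1.49% of the reads in genes, in libraries of poly(A) RNA.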
